A study of Mus musculus with 4 samples.

Results

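Fos, Fosb, Junb, Arc, Npas4, Egr1, Nr4a1, Nr4a3, Homer1 and Bdnf are the immediate early and activity genes described here. They were taken by symbol from the gene rows of the deposited matrices, where all 10 are present among 32285 genes. Expression was measured by single-nucleus RNA sequencing (snRNA-seq), in which each RNA molecule caught in a nucleus is counted once by its unique molecular identifier (UMI). There were 4 libraries of 1 mouse each, 2 from mice aged 3 months (3M-1 and 3M-2) and 2 from mice aged 6 months (6M-1 and 6M-2). All 4 mice were GCLC-KO, that is, a floxed Gclc gene was crossed with CaMKII-Cre, so that the catalytic subunit of the first enzyme of glutathione synthesis is lost from forebrain excitatory neurons. No wild-type mouse is among the libraries, so every difference below is between ages, mice, batches or cell types within GCLC-KO. Cortical tissue rich in rod-shaped microglia was dissected, nuclei were sorted by DNA stain, and the labels record no treatment of the mice. The labels give batch 1 to replicate 1 and batch 2 to replicate 2 at both ages.

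Immediate early genes are transcribed within minutes of a stimulus and need no new protein for it. In neurons, calcium that enters during firing activates kinases that phosphorylate factors such as CREB already sitting at these promoters, and the products then switch on a slower set of secreted and synaptic genes. Junb, Egr1 and the Fos family also answer growth factors and stress in glia, so these genes are not specific to neurons as a class.

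Of 30784 barcodes, 30515 nuclei passed the study's limits of 7000 detected genes and 1% of UMIs from mitochondrial genes, with 59262228 to 65894316 UMIs per library and a median of 5994 to 8140 UMIs per nucleus. Marker gating named 84.9% of them, among them 14218 excitatory neurons, 3592 inhibitory interneurons, 4390 oligodendrocytes, 931 oligodendrocyte precursors (OPCs), 233 astrocytes and 2141 microglia. Levels are given in CPM, the UMIs of a gene scaled to the total of its library and class. The summed level of 8 microglial markers was 8219 to 10630 CPM in microglia and 25 to 49 CPM in excitatory neurons. Nuclei were gated on these same markers, so this difference can follow from the selection and is no test of the gate. Pairs of libraries shared 12 to 19 cell barcodes, at most 0.274% of the smaller library. The deletion itself could not be checked, since Gclc in excitatory neurons stood at 42.4 and 33.1 CPM at 3 months and at 34.5 and 35.9 CPM at 6 months (replicate 1 first, the order in which 4 values are given throughout), near the 38.0 to 47.1 CPM of interneurons, and gene-level counts do not show which part of the gene was read. With 2 mice an age, p-values speak for these mice only, and edgeR draws part of each gene's spread from the other genes.

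Because CREB and related factors bind the cAMP response element (CRE), the promoters were searched for it. RefSeq promoter windows (GRCm38.p6, from 250 bases before to 50 bases after a start) were at hand for 8 of the 10 genes, in 15 windows; Arc and Egr1 had none. The CRE core TGACG, searched on both strands, was found in 8 of these 8 genes and in 8 of their 15 windows, and 20.8% of all 32851 promoter windows hold it. The stretches around it are shown for 7 of the genes, with TGACG or its reverse complement CGTCA in capitals, because the core is the one motif the 8 genes share.
Fos, chr12:85473741-85473848, plus strand: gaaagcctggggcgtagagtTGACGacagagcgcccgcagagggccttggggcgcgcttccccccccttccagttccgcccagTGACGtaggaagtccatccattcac
Fosb, chr7:19310081-19310125, minus strand: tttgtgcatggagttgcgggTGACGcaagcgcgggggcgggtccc
Junb, chr8:84978830-84978874, minus strand: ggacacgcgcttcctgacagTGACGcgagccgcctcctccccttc
Nr4a1, chr15:101266596-101266830, plus strand: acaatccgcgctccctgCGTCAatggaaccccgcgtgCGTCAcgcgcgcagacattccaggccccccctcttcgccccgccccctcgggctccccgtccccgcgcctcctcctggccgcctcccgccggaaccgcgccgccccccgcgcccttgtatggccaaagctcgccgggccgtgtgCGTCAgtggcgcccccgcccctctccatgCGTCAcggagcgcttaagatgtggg
Nr4a3, chr4:48045055-48045182, plus strand: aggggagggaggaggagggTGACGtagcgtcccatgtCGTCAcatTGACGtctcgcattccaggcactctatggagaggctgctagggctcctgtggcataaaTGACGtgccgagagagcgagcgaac
Homer1, chr13:93303681-93303756, plus strand: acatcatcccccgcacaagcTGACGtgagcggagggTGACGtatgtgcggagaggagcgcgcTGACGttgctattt
Bdnf, chr2:109692381-109692425, plus strand: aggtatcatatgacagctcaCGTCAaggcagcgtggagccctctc

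Nr4a1 and Nr4a3 hold 4 such cores each and Homer1 holds 3, while 1.03% of all windows hold 3 or more. The full palindrome TGACGTCA was in none of the 15 windows (1.79% of all windows), nor were the EGR site GCGTGGGCG (0.612%), the NR4A site AAAGGTCA (1.51%) or the CArG box of serum response factor (1.63%). The AP-1 site TGANTCA was in 1 window, of Bdnf (7.81%). The E-box form TCGTG that NPAS4 binds was in 5 of the 15 windows, of 3 genes (16% of all windows). These are matches of letters and no measure of binding. At the gene level, Junb overlaps Prdx2 on the opposite strand, and Bdnf overlaps an antisense gene, Gm45346; whether counting used strand is not given in the sources used here. Homer1 (12 annotated transcripts) and Bdnf (11) were counted over all transcripts together, so the short, activity-induced Homer1 form cannot be told from the long one.

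The members were first compared between classes of cells, with UMIs summed per library and class, mouse as a block in the fit, and glia as the comparison. Here 6 of the 9 members that could be tested were higher in neurons (the mean of excitatory and inhibitory) than in glia (the mean of 4 classes), and 36.1% of all 14463 genes tested were. Nr4a3, an orphan nuclear receptor, differed most, with a log2 fold change of 1.90 (SE 0.177, edgeR adjusted p = 1.11e-10). Its relative Nr4a1 was higher by 1.63 on the log2 scale (SE 0.115, edgeR adjusted p = 3.01e-13), and Homer1, a postsynaptic scaffold of metabotropic glutamate receptors, by 1.48 (SE 0.0825, edgeR adjusted p = 1.1e-15). Npas4, a transcription factor that answers calcium entry, differed by 1.07, Fos, a subunit of AP-1, by 0.75 and Bdnf, a secreted neurotrophin, by 0.63, each with an adjusted p under the threshold of 0.05. Astrocytes, 1 of the 4 glial classes, held under 12 UMIs each of Nr4a3, Npas4 and Fos over all libraries. Nr4a3 was at 0 there in 3M-1 and 6M-1, so the size of these differences leans partly on counts near the floor. Arc, a synaptic protein that drives removal of AMPA receptors, did not pass (log2 0.25, SE 0.173, edgeR adjusted p = 0.212), nor did the zinc-finger factor Egr1 (0.17, adjusted p = 0.355) or the AP-1 subunit Junb (-0.083, adjusted p = 0.654). Arc passed with a stricter gate (0.64) and, like Egr1 (0.40), without the 10% of nuclei with most UMIs (Arc 0.68), while Junb changed sign under 3 alternatives. Fosb did not pass the filter on low counts in this fit, and stood at 3.87, 5.74, 5.59 and 7.59 CPM in excitatory neurons.

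The split within neurons was sharper. Excitatory neurons exceeded interneurons in 9 of 9 members tested, against 24.1% of all genes. Bdnf stood at 31.5, 52.0, 38.5 and 50.7 CPM in excitatory neurons and at 3.53, 6.84, 4.56 and 6.64 CPM in interneurons, with no overlap of libraries (log2 3.19, SE 0.154, edgeR adjusted p = 1.2e-16). Arc stood at 34.0, 36.8, 23.6 and 33.3 CPM against 4.19, 6.20, 2.83 and 5.95 CPM (log2 2.94, SE 0.16, edgeR adjusted p = 2e-15). The other 7 differences ran from 0.84 (Fos) through 1.24 (Junb), 1.35 (Nr4a1), 1.45 (Nr4a3), 1.48 (Npas4) and 1.56 (Egr1) to 1.90 (Homer1). Levels are shares of the UMIs in a class, so a difference does not separate more RNA of the gene from less RNA of the others.

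**Figure D1:**
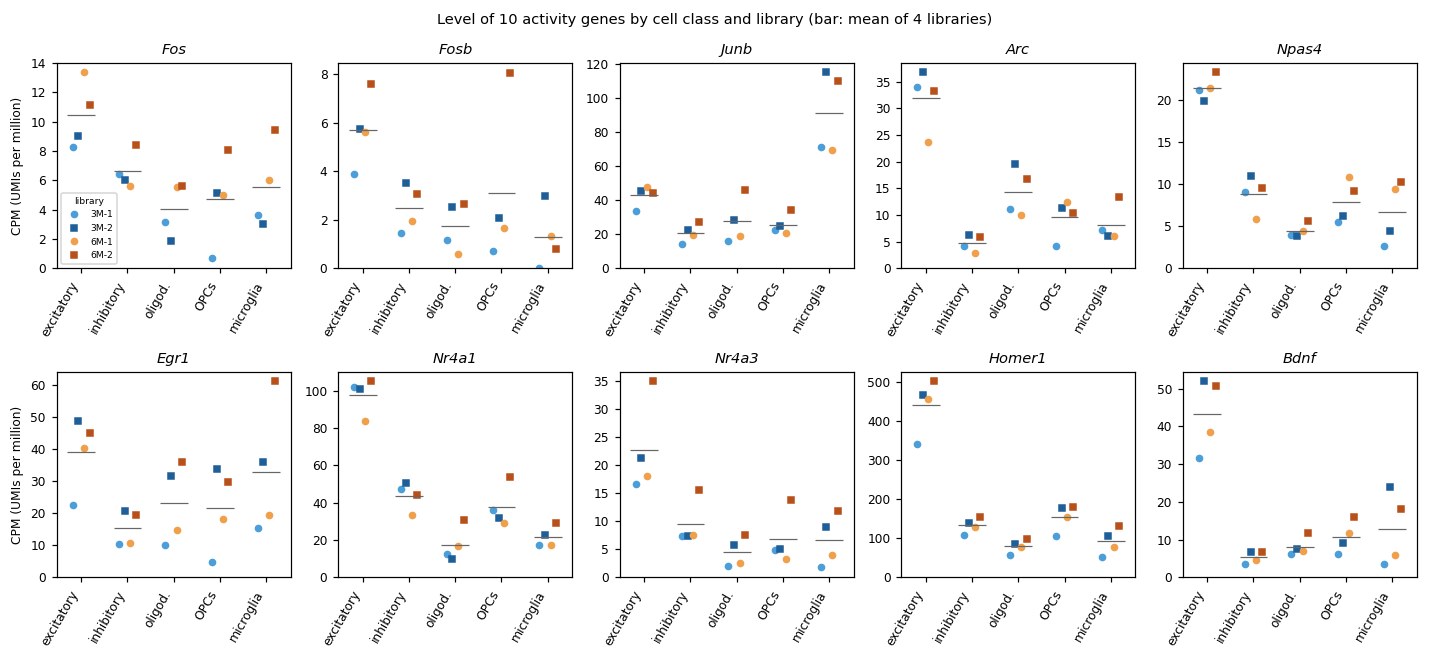
Level of each gene (CPM, linear axis from 0) in excitatory neurons, interneurons, oligodendrocytes, OPCs and microglia. Each library has 1 point, a bar marks the mean of 4, and astrocytes are not shown. The excitatory mean lies above that of interneurons for every gene, most for Bdnf and Arc. Junb in microglia (69.3 to 115.5 CPM) lies above the other classes shown.

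Counted per nucleus, glia carried a small share of the excitatory level of most members, and markers of excitatory neurons were counted beside them. The gate used these markers and left out glial nuclei high in them, so their level can be low by selection. A member above them is not thereby shown to exceed background. Oligodendrocytes held a median of 5.75% of the excitatory per-nucleus level over the 10 members (3.47% to 12.3%), and 3.43% (1.39% to 4.90%) over 8 markers of excitatory neurons, which mature oligodendrocytes should lack. Nr4a1, Nr4a3, Homer1, Bdnf and Npas4 lay within the span of the marker medians in oligodendrocytes, and Junb (12.3%), Egr1 (12.2%), Arc (9.48%), Fos (8.60%) and Fosb (7.29%) lay above it. Junb (11.4%, 13.1%, 7.91% and 22.0%), Egr1 (10.7%, 13.6%, 7.27% and 16.9%) and Arc (7.70%, 11.2%, 8.28% and 10.7%) were above the 8 markers in each library of oligodendrocytes. In microglia the members' median was 4.90% and that of the markers 3.48%. Junb, at 40.1%, 49.4%, 25.8% and 45.9% of the excitatory level, and Egr1, at 12.8%, 14.4%, 8.65% and 25.1%, stood above the other members in microglia. Among the markers only Mef2c, a transcription factor that microglia also express, came near Junb in microglia, at a median of 32.7%. OPCs held more of the members, a median of 15.0%, and 8.78% of the markers.

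**Figure D2:**
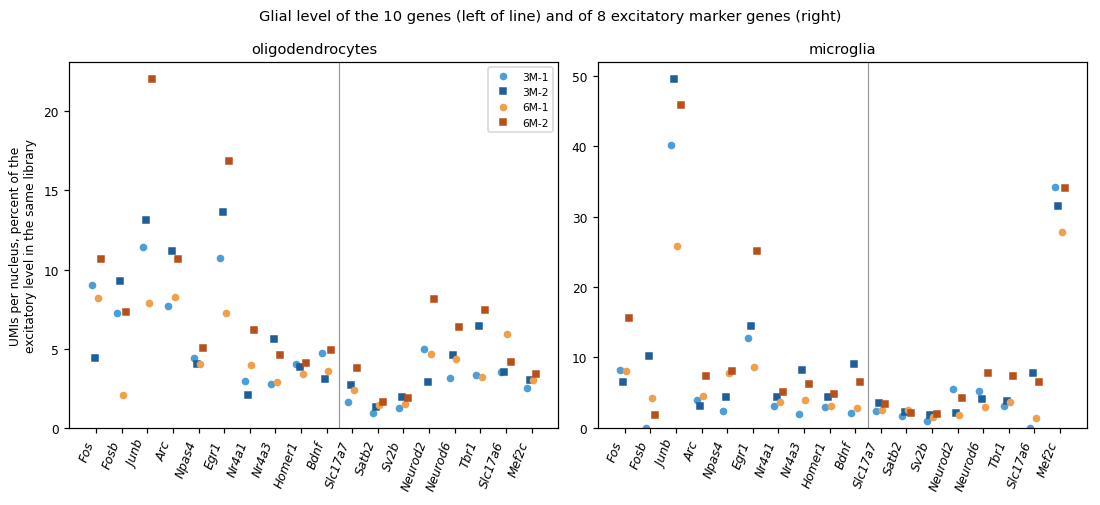
UMIs per nucleus of each of the 10 genes and of the 8 excitatory neuron markers, in oligodendrocytes and in microglia, as a percentage of the level in excitatory neurons of the same library (1 point per library, a scale of its own for each class). Most genes lie under 10%, as do most of the markers. Among the 10 genes, Junb and Egr1 reach highest in both classes. Arc and Fos also pass 10% in at least 1 library of oligodendrocytes, as do Fos and Fosb in microglia. The marker Mef2c lies above 10% in microglia.

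Each member also differed among 10 neuron types (10 of 10 in 1 edgeR F test with mouse as a block, against 76.6% of all genes; adjusted p from 1.3e-24 for Homer1 to 6.14e-05 for Fosb). Layer 4 was the highest excitatory type for Fos (15.0 CPM), Arc (55.1 CPM), Egr1 (73.2 CPM), Nr4a1 (158 CPM) and Homer1 (654 CPM). Layer 2/3 intratelencephalic (IT) neurons were highest for Fosb (11.2 CPM), Junb (49.6 CPM), Npas4 (26.9 CPM) and Bdnf (77.9 CPM). Layer 5/6 near-projecting (NP) neurons were the lowest excitatory type for Junb, Arc, Npas4, Egr1, Nr4a1 and Homer1, and the highest of all for Nr4a3, at 34.6, 39.2, 25.0 and 55.4 CPM (mean 38.6). Bdnf was the most uneven, with 12.9 CPM in layer 6 corticothalamic (CT) neurons, so that its highest excitatory type exceeded its lowest 6.04-fold, and Arc followed at 4.58-fold.

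Most neighbours in these orders did not differ beyond their spread over the 4 libraries. Over all 9 steps from the highest to the lowest type, the ranges separated at 1 step each for Arc, Nr4a1 and Homer1 and at none for the other 7 members. Among interneurons, Vip cells had the highest mean for 9 of the 10 members. Fosb in Vip cells rested on under 12 UMIs in all. Arc there ran from 0 to 15.6 CPM and overlapped Lamp5 cells. Fos in Vip cells (18.5, 20.8, 29.0 and 26.2 CPM) was above its mean in every excitatory type, and each library of Vip cells was above the layer 4 mean of 15.0 CPM, from 303 Vip nuclei in all.

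**Figure D3:**
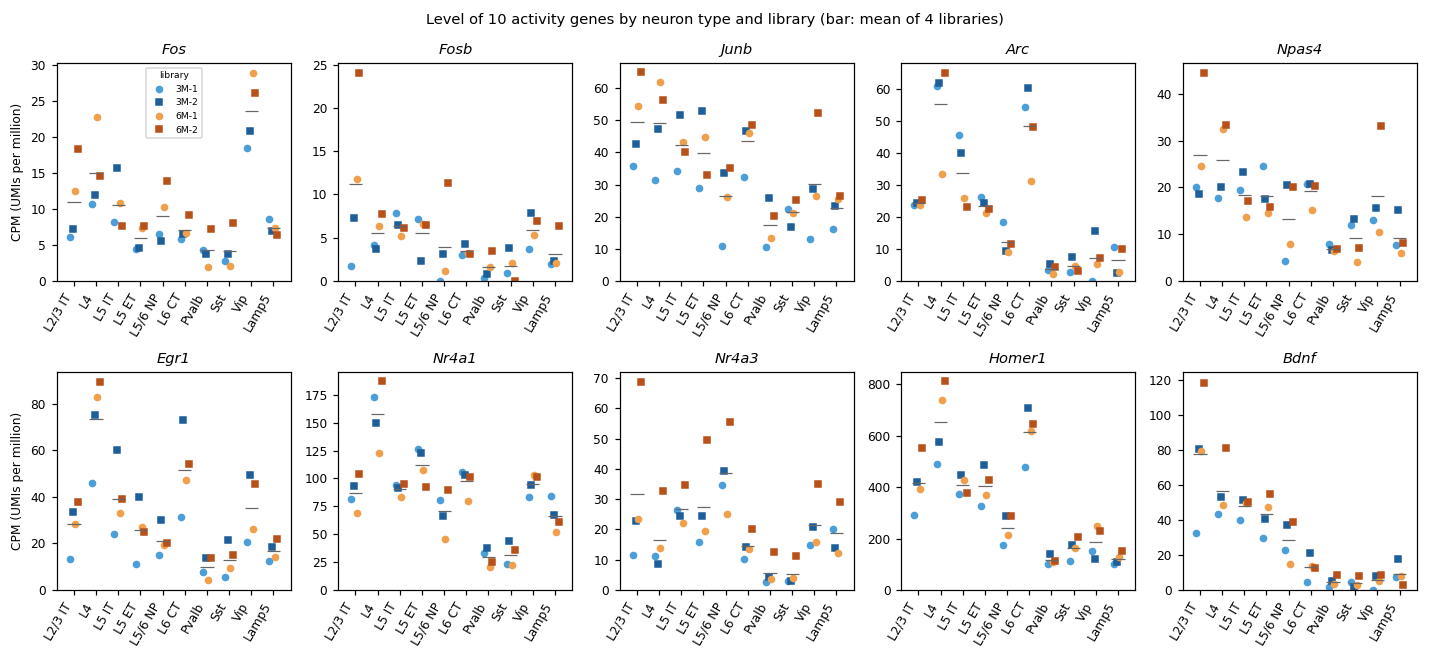
Level of each gene (CPM, linear axis from 0) in 10 neuron types, with 1 point per library and a bar at the mean of 4. Layer 2/3 IT and layer 4 carry the highest excitatory means of 9 genes, and Nr4a3 is highest in layer 5/6 NP. The mean of Vip cells is above those of the other interneurons for every gene but Bdnf, with overlap of libraries in Arc and few UMIs of Fosb.

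The genes whose mean level over the 10 types ran most closely with a member were, for Arc, Ext1 (Pearson r = 0.985), Homer1 (0.977) and Mast4 (0.974), and for Junb, Npas4 (0.966), Nab2 (0.966), which encodes a corepressor of EGR factors, and Cx3cl1 (0.96). For Bdnf they were Epha4 (0.985), Cfap54 (0.975) and Grasp (0.969), and for Fos, Npy1r (0.974), Naf1 (0.934) and Exosc9 (0.933). The first in line was Fbxo33 for Fosb (0.941), Dlgap3 for Npas4 (0.969), Gm13872 for Egr1 (0.95), Lrrk2 for Nr4a1 (0.928), Gm46218 for Nr4a3 (0.944) and Arc for Homer1 (0.977). These are descriptions over 10 types, picked from 11544 genes, and the types share libraries and depth.

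Within excitatory neurons, the members differed in how far their UMIs were concentrated in few nuclei. The 143 nuclei with most UMIs of a gene, 1% of all excitatory nuclei, held 54.1% of Fosb UMIs, 40.4% of Fos, 34.5% of Npas4, 32.3% of Nr4a3 and 26.6% of Bdnf. The same share was 18.1% for Junb, 16.6% for Arc and 12.5% for Egr1. It was 9.44% for Homer1 and 8.67% for Nr4a1, which were spread most widely. Fos had no UMI in 92.7% of excitatory nuclei and 109 UMIs in 1 nucleus, while Homer1 had none in 14.9% and 117 UMIs in 1 nucleus. A low level concentrates UMIs by itself, so these shares are not comparable as a property of regulation between genes of different level.

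The same nuclei tended to carry several members. With each nucleus thinned to 3000 UMIs, 343 excitatory nuclei had a Fos UMI, and 10.5% of them had a Fosb UMI against 1.08% of the nuclei without Fos, a 9.68-fold ratio that was 5.66 to 14.4 within single libraries. Npas4 was present in 21.3% of nuclei with Fos and in 4.62% of those without. Nr4a3 was found in 32.0% of the 181 nuclei with Fosb and in 4.95% of the rest. Homer1, present in most nuclei, was found in 77.6% of nuclei with Fos and 59.1% of the others. At this depth 15.4% of excitatory nuclei and 24.8% of layer 4 nuclei carried 3 or more of the 10 members, compared with 8.46% of Vip, 0.947% of oligodendrocyte and 1.23% of microglial nuclei. Only 950 oligodendrocyte and 244 microglial nuclei reached 3000 UMIs.

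With nuclei thinned to 1000 UMIs, the share of excitatory nuclei with a UMI was 30.7% for Homer1 (Wilson 95% interval 29.95% to 31.5%), 8.82% for Nr4a1, 4.47% for Junb, 4.19% for Egr1, 3.87% for Bdnf, 3.40% for Arc, 2.12% for Npas4, 1.94% for Nr4a3, 0.942% for Fos and 0.517% for Fosb. In oligodendrocytes, thinned to the same depth, it was 7.42% for Homer1, 1.99% for Nr4a1, 2.49% for Junb, 1.27% for Arc and 0.574% for Fos (interval 0.386% to 0.853%, against 0.795% to 1.12% for Fos in excitatory neurons). Before thinning the median depth was 7873 to 11575 UMIs in excitatory neurons and 1802 to 2868 in oligodendrocytes, and intervals cover counting error only.

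The main question of the design was whether the genes differed between 3 and 6 months. No member passed in excitatory neurons as a class, where 0.00521% of the 19189 genes tested did (1 gene), and DESeq2 called none of the members either. Fos was 8.29, 9.03, 13.4 and 11.1 CPM, higher in both mice aged 6 months than in both aged 3 months (log2 0.46, SE 0.201, unadjusted p = 0.0486, edgeR adjusted p = 0.856), and it was the 1 member under an unadjusted p of 0.05. Npas4, at 21.2, 19.8, 21.5 and 23.4 CPM, was also higher without overlap, as were 20.0% of all genes. Arc, at 34.0, 36.8, 23.6 and 33.3 CPM, was lower without overlap, as were 16.1% of all genes (log2 -0.35, SE 0.202, edgeR adjusted p = 0.862). The median log2 difference was 0.21 over the 10 members and -0.013 over all genes. Leaving out 3M-2 made 2 members pass, Egr1 and Nr4a3, with the spread taken from the pair aged 6 months alone.

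In layer 2/3 IT neurons 9 of the 10 members had a higher mean at 6 months, as did 46.9% of all genes. Fosb, a Fos relative with a long-lived splice form, stood at 1.67, 7.29, 11.8 and 24.0 CPM (log2 1.98, SE 0.563, unadjusted p = 0.00609, edgeR adjusted p = 0.746). Nr4a3 stood at 11.4, 22.6, 23.6 and 68.6 CPM (log2 1.44, SE 0.462, unadjusted p = 0.0115, edgeR adjusted p = 0.803). Fos stood at 6.08, 7.16, 12.6 and 18.3 CPM (log2 1.23, SE 0.317, unadjusted p = 0.0034, edgeR adjusted p = 0.679). In these 3 genes both mice aged 6 months were above both aged 3 months, and 6M-2 was the highest library. Npas4, at 20.1, 18.5, 24.6 and 44.6 CPM, and Junb, at 35.9, 42.7, 54.5 and 65.1 CPM, were ordered in the same way. Bdnf, at 32.4, 80.8, 79.6 and 118.6 CPM, overlapped between ages, since 3M-2 lay just above 6M-1.

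The other 4 members of layer 2/3 IT neurons also overlapped or were level. Arc was 23.7, 24.4, 23.6 and 25.3 CPM, the flattest of the 10. Egr1 was 13.2, 33.6, 28.4 and 37.9 CPM, Nr4a1 82.0, 93.3, 68.6 and 104 CPM, and Homer1 293, 421, 394 and 552 CPM. In all, 5 of 10 members were higher at 6 months without overlap, beside 16.2% of all genes, and the median log2 difference was 0.73 over the members and -0.0033 over all 13984 genes.

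None of the 10 passed in layer 2/3 IT neurons without a batch term (0 of 10 with edgeR and with DESeq2, 6 of 10 under an unadjusted p of 0.05, beside 5.67% of all genes), and 0.0% of genes did. With the batch number as a block, 3 members rose at 6 months, as did 0.415% of all genes (58 of 13984). These were Fosb (log2 2.16, SE 0.38, edgeR adjusted p = 0.000178), Nr4a3 (1.37, SE 0.269, adjusted p = 0.00116) and Bdnf (0.93, SE 0.231, adjusted p = 0.0262). The Fosb levels came from few UMIs (11, 58, 46 and 76, or 191 in all). Those of Nr4a3 came from 75, 180, 92 and 217 UMIs, and those of Bdnf from 213, 643, 311 and 375. Whether a few nuclei set the Fosb difference was not tested. Fos (1.22, adjusted p = 0.101), Npas4 (0.81, adjusted p = 0.277) and Junb (0.63, adjusted p = 0.431) did not pass in the fit with the block. The block leaves little of the 4 libraries to measure a gene's own spread, so that spread rests mostly on other genes. Over all genes, replicate 2 minus replicate 1 at 3 months correlated with the same difference at 6 months at -0.0554 in this type. Without 3M-2 and without a block, Fosb (3.38) and Bdnf (1.61) passed, each with an edgeR adjusted p of 0.0487, with the 1 remaining mouse aged 3 months assumed to vary like the pair aged 6 months. With no filter on low counts Fosb (1.92) and Nr4a3 (1.38) passed. The shares of all genes given here are from fits with the filter. Within batch 1 the levels of Bdnf were 32.4 CPM at 3 and 79.6 CPM at 6 months, and within batch 2 they were 80.8 and 118.6 CPM.

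**Figure D4:**
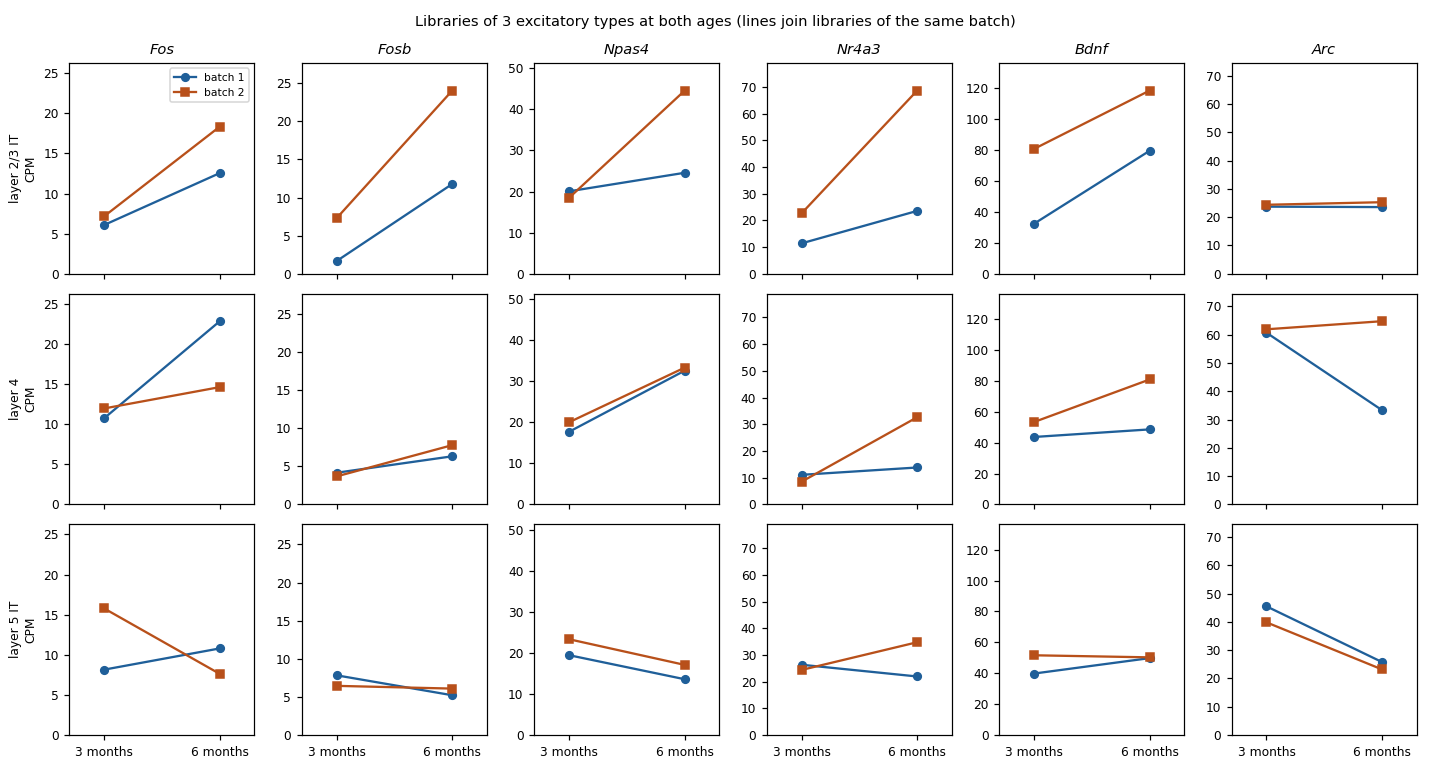
Levels (CPM, linear axis from 0) of Fos, Fosb, Npas4, Nr4a3, Bdnf and Arc at 3 and 6 months in layer 2/3 IT, layer 4 and layer 5 IT neurons, with 1 point per library and a line joining the libraries of a batch. In layer 2/3 IT both lines of Fosb, Nr4a3 and Bdnf run upward, with batch 2 above batch 1, and in layer 5 IT both lines of Fosb, Arc and Npas4 run downward.

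Several members also stood higher in batch 2 than in batch 1. Over all genes, differences between replicates at 3 and at 6 months correlated at -0.134 in excitatory neurons and -0.0554 in layer 2/3 IT neurons. No deviation shared by batch was thus seen over all genes in these sums. The members come from the same 4 libraries, so counts of members are not independent. Batch 2 lay above batch 1 at both ages in 9 of the 10 members of layer 2/3 IT neurons, beside 24.7% of all genes, and in 6 of 10 in excitatory neurons as a class, beside 25.7% of all genes. In a fit with age as the other term, 1 member passed between batches in layer 2/3 IT neurons, against 0.114% of all genes: Nr4a3, with a log2 difference of 1.26 (SE 0.268, edgeR adjusted p = 0.0152). Egr1 showed it at both ages in excitatory neurons, interneurons, oligodendrocytes and microglia without passing, for example at 22.7 and 40.4 CPM in batch 1 and 48.7 and 44.95 CPM in batch 2 in excitatory neurons, and at 15.4 and 19.5 against 36.0 and 61.3 CPM in microglia. What the batches share (day, sort or mouse handling) is not given.

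Other measures also differed between ages in layer 2/3 IT neurons. The nuclei gated to the type numbered 518, 858, 338 and 243. Markers of some other classes had higher sums at 6 months. The sum over 8 microglial markers was 18.7, 30.8, 49.4 and 36.4 CPM (7 of 8 higher without overlap, none at 0), that over 8 oligodendrocyte markers was 16.6, 20.9, 31.2 and 28.1 CPM (5 of 8, none at 0), and that over 10 interneuron markers was 84.9, 70.6, 153.6 and 132.8 CPM (6 of 10, none at 0). The sum over 8 OPC markers was 260.5, 234.4, 310.3 and 332.6 CPM (2 of 8 higher and 1 lower without overlap, Neu4 at 0). The sums over 10 astrocyte markers (186.3 to 249.1 CPM), 8 granule-type neuron markers (4.74 to 9.18 CPM), 8 vascular markers (3.65 to 5.89 CPM) and 10 spiny projection neuron markers (1318, 1673, 724.1 and 1366 CPM, mostly Pde10a) were not uniformly higher. The part of these in the members' difference was not tested. The sum over 16 heat shock and dissociation response genes, which answer handling of tissue, was 155.6, 222.3, 226.4 and 205.8 CPM and overlapped between ages. With batch as a block 2 of these genes passed between ages in other classes. Hspb1, a small heat shock protein, fell in excitatory neurons (log2 -2.76, SE 0.495, edgeR adjusted p = 0.00577). Cebpd rose in oligodendrocytes (2.23, SE 0.383, edgeR adjusted p = 0.0487). Both were picked from all classes and types, and the share of all genes passing in these 2 fits is not given here.

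In layer 4, 7 of 10 members were higher at 6 months without overlap, beside 16.1% of all genes. Npas4 stood at 17.7, 20.0, 32.6 and 33.3 CPM (log2 0.82, SE 0.222, unadjusted p = 0.00391, edgeR adjusted p = 0.542) and Homer1 at 489, 576, 738 and 812 CPM (log2 0.56, SE 0.153, unadjusted p = 0.00405, edgeR adjusted p = 0.542). Nr4a3 stood at 11.1, 8.51, 13.8 and 32.7 CPM (log2 1.26, SE 0.401, edgeR adjusted p = 0.621), and passed with no filter on low counts (1.24, adjusted p = 0.0151). In Npas4 and Homer1 the mice of an age lay close together, while the Nr4a3 difference came mostly from 6M-2. Fos (10.7, 12.0, 22.8 and 14.6 CPM), Junb (31.5, 47.4, 61.9 and 56.3 CPM) and Egr1 (45.8, 75.0, 82.8 and 89.3 CPM) were the other 3 members under an unadjusted p of 0.05, which makes 6 of 10, beside 6.57% of all genes. None of these passed in layer 4 with the filter on low counts, with or without the batch block. With the filter and without the block 0.0% of genes passed. No share of all genes is given for the fit without the filter. Arc went the other way in 1 mouse, at 60.7, 61.9, 33.3 and 64.7 CPM. The microglial marker sum in layer 4 was 17.7, 40.7, 50.03 and 49.2 CPM. Oligodendrocyte markers summed to 17.0, 17.0, 40.8 and 23.6 CPM and interneuron markers to 57.2, 45.8, 109.1 and 63.8 CPM, also higher at 6 months. Sums of OPC markers (94.3, 99.8, 90.1 and 88.0 CPM) and spiny projection neuron markers (2634, 2523, 1133 and 2364 CPM) were lower. The remaining lists overlapped between ages. Their part in the layer 4 differences was not tested.

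In deeper layers few members separated the ages, in both directions, and their numbers were not far from the shares of all genes. In layer 5 IT neurons Arc stood at 45.5, 39.8, 25.8 and 23.2 CPM, lower in both mice aged 6 months (log2 -0.79, SE 0.209, unadjusted p = 0.00387, edgeR adjusted p = 0.95). Npas4 (19.4, 23.3, 13.6 and 17.1 CPM) and Fosb (7.84, 6.46, 5.23 and 6.10 CPM) were also lower without overlap, as were 18.3% of all genes. Fosb there rested on 78 UMIs in all, and its levels in 3M-2 and 6M-2 lay close together. In layer 5 extratelencephalic (ET) neurons 2 members were higher at 6 months without overlap (17.9% of all genes were) and 3 lower (20.6%). Bdnf was 29.5, 40.6, 47.7 and 54.7 CPM, higher at 6 months (log2 0.58, SE 0.224, unadjusted p = 0.0291, edgeR adjusted p = 0.552). Fos was the other higher member there, at 4.37, 4.51, 7.30 and 7.65 CPM (log2 0.77, SE 0.433, edgeR adjusted p = 0.716). Arc (26.2, 24.2, 21.1 and 22.4 CPM), Npas4 (24.6, 17.5, 14.6 and 15.9 CPM) and Nr4a1 (126.8, 122.9, 107.2 and 92.6 CPM) were the lower ones. In layer 6 CT neurons the same 3 genes were lower without overlap, beside 17.6% of all genes, and Fos alone was higher, beside 15.4% of all genes, at 5.87, 6.56, 6.72 and 9.22 CPM (log2 0.38, SE 0.318, edgeR adjusted p = 0.995). Arc there was 54.1, 60.1, 31.2 and 47.9 CPM (log2 -0.51, SE 0.227, unadjusted p = 0.0521, edgeR adjusted p = 0.995). No tested member passed in layer 5 IT, layer 5 ET, layer 5/6 NP or layer 6 CT neurons, where 0.0% of genes passed in each. There 1, 1, 0 and 0 members were under an unadjusted p of 0.05. In layer 5/6 NP neurons Fos and Fosb had too few UMIs to be tested.

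**Figure D5:**
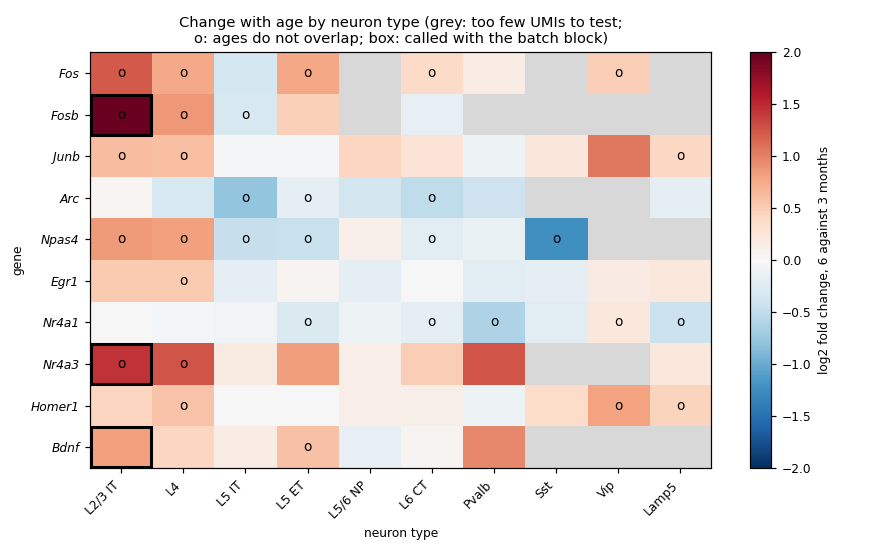
Log2 fold change at 6 against 3 months (colour scale) for each gene in each neuron type, from the edgeR fit without a batch term. A circle marks genes whose libraries do not overlap between ages, a box marks the 3 genes of layer 2/3 IT that pass with batch as a block, and grey marks genes with too few UMIs. The columns of layer 2/3 IT and layer 4 are mostly positive, with Fosb in layer 2/3 IT the largest value (1.98).

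Whether the age difference varied among neuron types was tested in 1 F test per gene over the 10 types, chosen after the data were seen. No member passed, and 0.0823% of all genes did. Npas4 came nearest (unadjusted p = 0.000338, edgeR adjusted p = 0.111), then Nr4a3 (unadjusted p = 0.00403, adjusted p = 0.343), Homer1 (0.00966, adjusted p = 0.443) and Fosb (0.0233, adjusted p = 0.58). DESeq2 also called none. With no filter on low counts 5 members passed, and the share of 0.0823% does not cover that fit.

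Interneurons showed no tested member past the threshold as a class or in Pvalb, Sst, Vip or Lamp5 cells, where 0.0% of genes passed in each. Too low in counts to be tested were Fosb in Pvalb cells and Fos, Fosb, Npas4 and Bdnf in Lamp5 cells. The same held for Fos, Fosb, Arc, Nr4a3 and Bdnf in Sst cells, and for Fosb, Arc, Npas4, Nr4a3 and Bdnf in Vip cells. In Vip cells Homer1 was 152, 119.7, 247.7 and 230.2 CPM, higher in both mice aged 6 months (log2 0.80, SE 0.211, unadjusted p = 0.002, edgeR adjusted p = 0.858). Npas4 in Sst cells was 12.0, 13.1, 4.07 and 7.03 CPM (log2 -1.22, SE 0.506, unadjusted p = 0.0353, edgeR adjusted p = 0.998). Its values at 6 months rest on few UMIs, since the Sst sums held 1476036 (6M-1) and 995940 (6M-2) UMIs of all genes. Nr4a1 in Pvalb cells was 33.4, 37.4, 20.7 and 25.0 CPM (log2 -0.61, SE 0.22, unadjusted p = 0.0178, edgeR adjusted p = 0.951). The age difference in excitatory neurons did not differ from that in interneurons for any member (0 passed, against 0.00526% of genes, in a test chosen after the data were seen).

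In glia no member that could be tested passed between ages either. Of all genes tested, 0.0319% passed in oligodendrocytes, 0.13% in microglia and 0.0% in OPCs and in astrocytes. The filter on low counts left only Homer1 to test in astrocytes. It also left out Fosb in oligodendrocytes, Fos, Fosb and Arc in microglia, and Fos, Fosb, Npas4 and Nr4a3 in OPCs. Nr4a1 in oligodendrocytes was 12.7, 10.1, 17.0 and 30.7 CPM, from 32, 16, 58 and 93 UMIs (log2 0.93, SE 0.348, unadjusted p = 0.0218, edgeR adjusted p = 0.61). Junb in microglia was 71.3, 115.5, 69.3 and 110 CPM and followed the batches and not the ages (log2 by age -0.054). Npas4 in microglia came from 3, 3, 14 and 13 UMIs (log2 1.47, SE 0.615, unadjusted p = 0.0339, edgeR adjusted p = 0.616). Its per-nucleus level was 2.42%, 4.42%, 7.86% and 8.06% of that in excitatory neurons. In microglia the 7 neuronal markers other than Mef2c reached at most 7.83% in any library and 3.68% in 6M-1. The gate used these markers, so they can be low by selection. Of the age differences in excitatory neurons set against oligodendrocytes, none of the members' passed (0.201% of genes did). Nr4a1 came nearest at -1.08 on the log2 scale (SE 0.263, edgeR adjusted p = 0.113), and passed without 6M-1 (-1.29, adjusted p = 0.0168).

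Shares of nuclei with a UMI were compared between ages next. With nuclei thinned to 1000 UMIs, at least 1 of the 10 members was seen in 37.3%, 47.3%, 44.7% and 46.8% of excitatory nuclei, a difference of 3.51 points between ages that lay within the spread of the mice aged 3 months and was -1.50 without 3M-1 (exact permutation p = 1, two-sided; the smallest that 2 against 2 allows is 0.333). Without thinning the shares were 91.8%, 92.3%, 94.6% and 95.1%. In layer 2/3 IT neurons 3 or more members were seen in 1.36% (Wilson 0.660% to 2.78%), 3.86% (2.76% to 5.37%), 5.05% (3.17% to 7.93%) and 9.504% (6.42% to 13.9%) of nuclei, with both mice aged 6 months above both aged 3 months (exact permutation p = 0.333, the smallest possible). In layer 4 at least 1 member was seen in 54.0%, 61.2%, 64.1% and 71.6% of nuclei. In oligodendrocytes it was 10.8%, 18.0%, 15.6% and 21.7%, so that batch 2 was above batch 1 at both ages there too.

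Other genes of the activity programme were followed from 5 lists. In layer 2/3 IT neurons 12 other immediate early transcription factors were tested and none passed without a batch term (4 under an unadjusted p of 0.05, all higher, beside 5.67% of all genes either way; median log2 0.55). With batch as a block Nr4a2, the remaining NR4A receptor, rose by 1.38 on the log2 scale (SE 0.252, edgeR adjusted p = 0.000312). The 16 signalling inhibitors and effectors tested had a median of 0.42, with 6 under an unadjusted p of 0.05 and none passing, and with the block Ptgs2, the inducible cyclooxygenase, rose by 1.45 (SE 0.324, edgeR adjusted p = 0.00846). The 18 late secreted and synaptic genes had a median of 0.23 and the 28 upstream calcium, kinase and transcription factor genes a median of -0.065, with none passing.

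Between excitatory neurons and interneurons the other early transcription factors went the way of the members, with 8 of 11 higher and none lower, led by Klf10 (log2 3.60), Nr4a2 (2.58) and Egr3 (2.35). Of 16 signalling genes 10 were higher and 1 lower (Spry4, -1.68). Of 17 late genes 9 were higher, such as Nrn1 (3.85) and Nptx1 (3.05), and 5 lower, such as Scg2 (-1.13). Of all genes tested, 24.1% were higher in excitatory neurons. The share lower is not given here, so the lower counts are not set against it. Between neurons and glia the early factors were divided, with 2 higher and 3 lower of 11, against 36.1% and 32.8% of all genes. Of 13 handling genes 6 were lower in neurons, such as Cebpd (-3.12), Nfkbia (-3.01) and Jun (-1.48), and 1 was higher.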

How the data were processed

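Nuclei of dissected cortex from 4 GCLC-KO mice had been sequenced with 10x Chromium 3′ chemistry. The authors deposited raw UMI counts per gene and nucleus, made with Cell Ranger 7.0.0 per the file headers; the submitters' processing notes name build mm10. The annotation, the setting for introns and the use of strand are not given in the sources used here. The study's own filter was applied (at most 7000 genes and 1% mitochondrial UMIs). Doublets were not called; a nucleus was given a class or type when its mean marker score, on counts scaled to 10000, was at least 0.25 and the second score at most 0.6 of it, and other nuclei were left out. UMIs were summed per library and class or type (at least 30 nuclei per library; layer 6b, with 23 to 28, was not tested).

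Ages and cell types were compared with edgeR 4.0.16 (TMM, filterByExpr, quasi-likelihood test) in R 4.3.3 over all genes, with Benjamini-Hochberg adjustment and a threshold of 0.05. The fit without a block was checked on counts simulated for excitatory neurons, for the size of the fold change. The fit with the batch block and the single types were not checked in this way. DESeq2 1.42.0, RLE scaling, no filter on low counts, a stricter gate (0.35 and 0.5), no filter on nuclei, leaving out the 10% of nuclei with most UMIs, leaving out each library and batch as a block were alternatives. The labels pair the libraries by batch; deviations of same-numbered libraries correlated between -0.179 and 0.0363 over the classes and types. Shares used nuclei thinned to 1000 or 3000 UMIs and Wilson intervals (Python 3.11.15, scipy 1.17.1). All 10 members were named by the rule fixed at the start, with up to 5 passing genes per other list, and the 3 genes most alike in level over types among genes with at least 10 CPM in 1 type. Members, lists and markers were chosen with earlier results of these data known.

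Annotation was GENCODE M21 on GRCm38 and promoters were from RefSeq.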

Additional observations from a re-analysis of the deposited data

Results flagged for a closer look

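For 2 members the differences between ages had opposite signs in upper and in some deep neuron types. Both mice of an age lay on one side in each of these types. None of these differences passed in the fit without a batch block, and those in deep types were within 2 SE. The share of all genes with such opposite moves is not given here. Fosb had a log2 difference of 1.98 in layer 2/3 IT and 0.87 in layer 4 neurons, against -0.33 in layer 5 IT neurons (SE 0.382, edgeR adjusted p = 0.954). Npas4 had 0.86 in layer 2/3 IT and 0.82 in layer 4 neurons, against -0.46 in layer 5 IT (SE 0.26, edgeR adjusted p = 0.95), -0.44 in layer 5 ET (SE 0.292, edgeR adjusted p = 0.774) and -0.21 in layer 6 CT neurons (SE 0.234, edgeR adjusted p = 0.995). These pairs of types were picked from the same values and were not tested. The Fosb levels in layer 5 IT neurons rested on 78 UMIs in all. Fosb in layer 5 ET (0.48, SE 0.551) and Npas4 in layer 5/6 NP neurons (0.105, SE 0.644) had the sign of the upper types. Fosb in layer 6 CT neurons was -0.17 (SE 0.407), with ages overlapping. The 1 test over all 10 types at once gave an edgeR adjusted p of 0.111 for Npas4 and 0.58 for Fosb. Groups of 2 libraries are too small for a test of outlying libraries.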

How the results depend on the processing

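With 2 mice an age, calls between ages depended on single settings, and the cause was not tested in any of them. Members passing between ages numbered 0 in each class and type, also with RLE scaling, DESeq2, the stricter gate, no filter on nuclei and without the 10% of nuclei with most UMIs. Members left out by the filter on low counts could not pass in these fits. With the batch number as a replicate block 3 passed in single neuron types (all in layer 2/3 IT), and the block changed no other call. The pairing with the numbers crossed, tried after the data were seen, called 0 members in every class and type. With no filter on low counts 3 passed in single types (Fosb and Nr4a3 in layer 2/3 IT, Nr4a3 in layer 4), and 5 passed in the test of types by age. The share of all genes passing without the filter is not given here. Leaving out each library gave 0 to 2 members in excitatory neurons, 0 to 1 in interneurons, 0 to 1 in OPCs and 0 to 4 in single types; those in the classes came without 3M-2, and those in types without 3M-2 (4) or 6M-1 (1, Nr4a3 in layer 5 ET), and in such fits the lone mouse of an age is assumed to vary like the other pair. For the age difference in excitatory neurons against oligodendrocytes, 1 member (Nr4a1) passed with no filter and 1 without the 10% of nuclei with most UMIs, and leaving out each library gave 0 to 1 (1 without 6M-1). The difference of Junb between neurons and glia turned to 0.0083 with no filter, 0.0014 without the 10% of nuclei with most UMIs and 0.21 without 3M-2, with -0.26 to 0.21 over the libraries left out. The difference in shares of excitatory nuclei with a member ran from -1.50 to 8.51 points over the libraries left out, and was -1.50 without 3M-1. Over 1803 log2 values under alternatives, 148 changed sign, 104 of them with a library left out, and none where either value passed.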
